A study of Mus musculus with 5 samples.

Results

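The genes described here are 10 genes of the mechanistic target of rapamycin complex 1 (mTORC1) and of the machinery that reports amino acids to it: Mtor, Rptor, Mlst8, Rheb, Rraga, Rragc, Rragd, Lamtor1, Slc38a9 and Depdc5. They were chosen by name, and all 10 were found among the 36529 gene rows of the tables. In the GRCm38 annotation, 4 of them lie on chromosome 4, namely Mtor (chr4:148448582-148557685), Rraga (chr4:86575673-86577285), Rragc (chr4:123917433-123936997) and Rragd (chr4:32982998-33022180), all on the plus strand. Single-cell RNA-seq libraries (10x Genomics 3' kit, version 2) came from mice with a knockout of Gcgr, the glucagon receptor gene. The series title ties the loss of the receptor to tumors that depend on amino acids and start from a subpopulation of alpha cells, the glucagon cells of the pancreatic islet. There were 3 tumor libraries from homozygous knockout mice, called A, B and C here because the tables do not tie them to the numbered tumor samples, 1 library of islets from a homozygous knockout and 1 of islets from a heterozygous knockout. No wild-type library was analysed here, so the heterozygous islets, which carry 1 disrupted allele, are the control. All animals received standard chow and no treatment, and strain, age and the knockout's construction were not stated in the labels.

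Kept cells numbered 495, 846 and 1084 in tumors A, B and C, 2843 in the homozygous islets (1525 typed as alpha by the authors) and 1326 in the heterozygous islets (306 alpha). Median UMIs (unique molecular identifiers, 1 per captured transcript) ran from 10961 to 26091.5 per kept cell over the libraries, and total UMIs from 10508498 to 34101553. Levels are UMIs per 1000000 UMIs (CPM). Because the kit tags each transcript once at its 3' end, levels were compared between genes without a length correction. Gcgr itself had 0 UMIs in tumor A and in homozygous alpha cells (limits of 0.297 and 0.135 CPM from 3 counts), 1 in tumor B and 3 in tumor C, against 8 in heterozygous alpha cells (2.49 CPM). The 8 alpha cell markers summed to 390850 to 419818 CPM in the tumor libraries and homozygous alpha cells and to 390100 CPM in heterozygous alpha cells, with Loxl4 at 0 in both islet libraries. Each islet genotype is 1 library, and nothing in the labels ties the tumors to separate animals, so p-values measure the spread between these libraries. In tumors against islets, the spread between the islet libraries includes the genotype difference.

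mTORC1 is a protein kinase complex that turns on protein and lipid synthesis and holds back autophagy when amino acids and growth factors are plentiful. Amino acids act through heterodimers of Rag GTPases, RagA or RagB paired with RagC or RagD, which the Ragulator complex anchors to the lysosome and which bring mTORC1 to the lysosomal surface. There the small GTPase Rheb, the target of growth factor signals, switches the kinase on. Alpha cells are known to multiply when circulating amino acids rise after glucagon signalling is blocked, and in mice this response involves mTORC1 and the glutamine carrier Slc38a5.

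The promoters of 3 of the 10 genes, Rheb, Rragc and Lamtor1, held the letters CACGTG, the palindromic core of the E-box motif, in the 250 bases before to 50 bases after the RefSeq gene start (build GRCm38.p6). Of 32851 RefSeq mouse promoters of this length, 7.15% held it. The longer form CACGTGA, searched on both strands and by its letters contained in the first, was in the same 3 promoters and in 3.77% of all promoters. These 3 sequences are shown with that of Rragd, the gene whose level differed the most between cell populations and which had no match. Sequences run 5' to 3' on the strand of the gene, and capitals mark CACGTG. The Rheb window is chr5:24842312-24842611 (minus strand), the Rragc window chr4:123917183-123917482 (plus strand), the Lamtor1 window chr7:101905587-101905886 (plus strand) and the Rragd window chr4:32982748-32983047 (plus strand).
Rheb: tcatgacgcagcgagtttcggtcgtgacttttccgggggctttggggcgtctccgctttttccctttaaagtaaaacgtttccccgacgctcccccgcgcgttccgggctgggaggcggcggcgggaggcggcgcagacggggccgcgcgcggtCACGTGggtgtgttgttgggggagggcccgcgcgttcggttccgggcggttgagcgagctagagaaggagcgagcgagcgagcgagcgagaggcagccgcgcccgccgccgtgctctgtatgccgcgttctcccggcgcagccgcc
Rragc: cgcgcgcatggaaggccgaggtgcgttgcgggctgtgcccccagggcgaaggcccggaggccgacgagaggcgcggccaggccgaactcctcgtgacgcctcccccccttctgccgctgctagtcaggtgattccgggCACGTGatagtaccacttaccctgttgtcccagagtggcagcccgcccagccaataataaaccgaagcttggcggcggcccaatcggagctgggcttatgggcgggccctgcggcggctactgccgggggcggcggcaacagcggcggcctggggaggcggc
Lamtor1: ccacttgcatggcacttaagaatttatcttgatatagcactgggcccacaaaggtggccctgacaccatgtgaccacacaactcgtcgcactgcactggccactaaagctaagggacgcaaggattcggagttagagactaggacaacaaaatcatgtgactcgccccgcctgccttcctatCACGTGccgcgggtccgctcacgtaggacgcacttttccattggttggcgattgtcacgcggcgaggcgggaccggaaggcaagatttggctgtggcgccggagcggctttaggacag
Rragd: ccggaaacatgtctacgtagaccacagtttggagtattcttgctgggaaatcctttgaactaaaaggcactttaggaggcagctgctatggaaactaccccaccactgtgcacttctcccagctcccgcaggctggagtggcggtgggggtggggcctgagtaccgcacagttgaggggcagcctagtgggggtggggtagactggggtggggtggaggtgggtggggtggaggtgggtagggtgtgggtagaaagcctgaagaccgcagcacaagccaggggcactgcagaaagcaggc
The motif began 96 bases before the start of Rheb, 112 before that of Rragc and 68 before that of Lamtor1. The letters are a description of these windows only.

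In alpha-like cells the 10 genes fell into a high and a low tier. Rheb, Rraga, Lamtor1 and Rragc, which encode Rheb, RagA, a Ragulator scaffold and RagC, had 27.1 CPM or more in all 5 libraries. Mtor, Rptor, Mlst8, Rragd, Slc38a9 and Depdc5 had 16.8 CPM or less in all 5. The kinase gene and those of its partner subunits were all in the low tier, as was Rragd, which encodes the Rag GTPase RagD. At an equal depth of 5000 UMIs per cell, Mtor had a UMI in 2.59% to 4.63% of alpha-like cells over the libraries and Rheb in 40.4% to 65.7%. Without thinning, the shares were 7.28% to 25.8% for Mtor and 62.4% to 96.7% for Rheb. A cell without a UMI of Mtor at this depth is therefore not a cell shown to lack it.

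Among the core subunits, Mtor, the kinase, stood at 7.44, 11.6 and 8.13 CPM in tumors A, B and C, at 5.46 CPM in homozygous alpha cells and at 8.40 CPM in heterozygous alpha cells. It was highest in endothelial cells, at 35.3 CPM in the homozygous and 36.3 CPM in the heterozygous islets, with exact 95% Poisson intervals of 21.6 to 54.6 and 24.7 to 51.5. The totals differ in their hormone content, so levels are also given with hormone transcripts out of the totals (hormone-free CPM). The 8 transcripts counted as hormones were Gcg, Ins1, Ins2, Ppy, Pyy, Sst, Iapp and Ttr. Ttr encodes a carrier protein, not a hormone, and is among the alpha cell markers, so hormone-free totals leave it out too. Together the 8 made up 41.1% to 42.5% of UMIs in tumors, 56.5% in homozygous and 48.1% in heterozygous alpha cells. They made up 71.3% and 71.4% in homozygous and heterozygous beta cells, and 4.44% and 5.44% in homozygous and heterozygous endothelial cells. With those transcripts out of the totals, the endothelial level of Mtor was 2.95 times that of alpha cells in the homozygous islets, in place of 6.47 times, and 2.37 times in the heterozygous islets, in place of 4.32 times. In hormone-free CPM the endothelial cells were still the highest (37.0 homozygous, interval 22.6 to 57.1, and 38.4 heterozygous, interval 26.1 to 54.5), but both intervals overlapped those of beta cells (20.5 homozygous, interval 14.1 to 28.8, and 24.9 heterozygous, interval 20.7 to 29.7). Rptor, which encodes Raptor, the subunit that binds substrates, varied the least of the 10 over the 14 profiles of 50 or more cells, by 1.90 on the log2(CPM + 1) scale. In hormone-free CPM its range was 2.54, and Rragc had the smallest of the 10 (1.43). Mlst8, a subunit that binds the kinase domain, had 3.66 to 14.1 CPM where it was detected and 0 UMIs in the 74 homozygous stellate cells, which allows up to 15.8 CPM. The reads of Mlst8 may be mixed with those of Bricd5, which overlaps it on the opposite strand, because no source used here says whether counting took strand into account. The same holds for Mtor with Angptl7, Rptor with Rptoros, Rragc with 4930535I16Rik, Lamtor1 with Tomt and Lrrc51, and Slc38a9 with Gm47827.

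**Figure D1:**
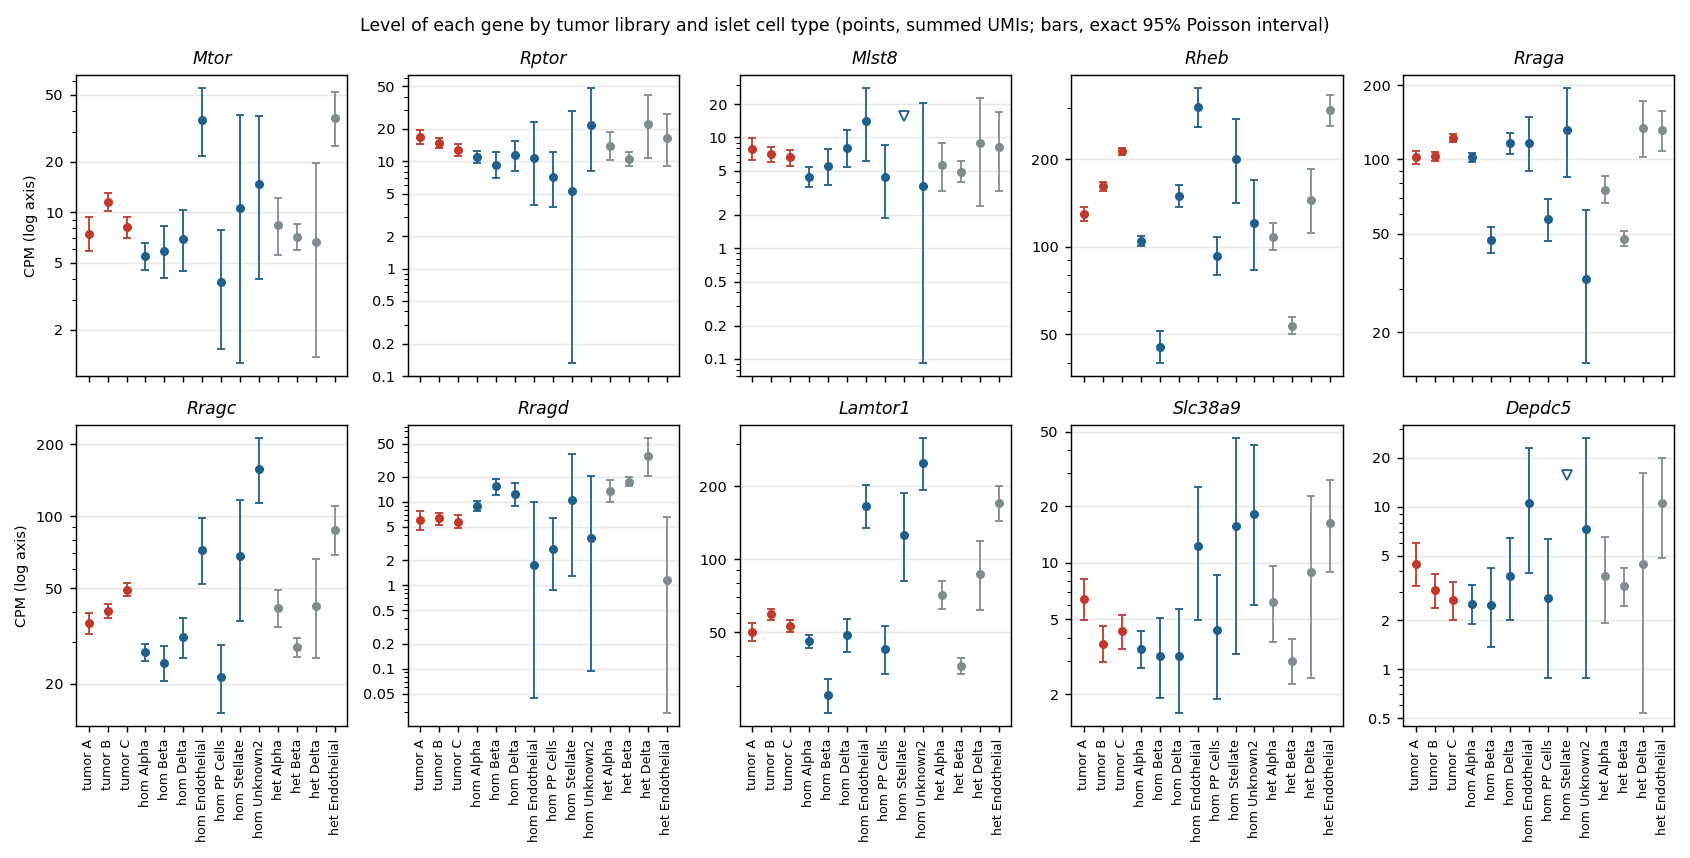
Level of each of the 10 genes in CPM (log axis, a scale of its own in each panel) in the 3 tumor libraries (red), the homozygous islet cell types (hom, blue) and the heterozygous islet cell types (het, grey) with 50 or more cells. Points are summed UMIs over the cells, bars are exact 95% Poisson intervals for counting error, and open triangles mark the limit of a count of 0. Rragd lies lower in endothelial than in beta cells, while Mtor, Rheb and Lamtor1 lie higher there.

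Rheb was counted at 130, 161 and 213 CPM in tumors A, B and C, at 105 CPM in homozygous alpha cells and at 109 CPM in heterozygous alpha cells. Its highest levels in CPM were in endothelial cells (302 CPM homozygous, 295 CPM heterozygous) and its lowest in beta cells (45.4 CPM homozygous, 53.6 CPM heterozygous). This order depended on the hormone content of the totals. In hormone-free CPM, tumor C (362) came first, followed by homozygous delta cells (323) and endothelial cells (316 homozygous, 312 heterozygous), and Unknown2 cells of the homozygous islets (129) came last, below beta cells (158 homozygous, 187 heterozygous). In CPM the intervals of all 3 tumors lay above those of alpha cells of both genotypes and did not overlap each other. In hormone-free CPM those of tumors B (265 to 283) and C (351 to 372) did so, while that of tumor A (214 to 239) overlapped those of homozygous (231 to 250) and heterozygous alpha cells (188 to 232).

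The Rag genes did not share a pattern. Rraga, which encodes RagA, was near 102 CPM in tumors A and B (102 and 103 CPM), at 122 CPM in tumor C, at 102 CPM in homozygous alpha cells and at 75.6 CPM in heterozygous alpha cells. Its beta cell levels, 47.4 CPM in homozygous and 47.8 CPM in heterozygous islets, were below both alpha cell levels. In hormone-free CPM, beta cells (165) were below alpha cells (235) in the homozygous islets, and the order turned in the heterozygous islets, at 167 in beta and 146 in alpha cells. Rragc, which encodes RagC, had 35.7, 40.4 and 49.5 CPM in tumors A, B and C, against 27.1 CPM in homozygous and 41.4 CPM in heterozygous alpha cells, so that the tumors lay on both sides of the heterozygous level. It was highest in the homozygous cell type the authors left as Unknown2 (157 CPM, interval 114 to 212, 86 cells), which was also the highest for Lamtor1, the Ragulator subunit that anchors the complex to the lysosome (249 CPM, interval 193 to 315). In those cells Rraga had its lowest level of all 14 profiles, 32.9 CPM (interval up to 62.5). These 3 positions at the ends of the order held in hormone-free CPM.

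Rragd, which encodes RagD, the alternative partner of RagA and RagB, had the widest range of the 10 genes, 4.08 on the log2(CPM + 1) scale and 4.80 in hormone-free CPM. Its order of levels started with heterozygous delta cells (35.7 CPM, interval 20.4 to 57.9), followed by heterozygous and homozygous beta cells (17.5 and 15.3 CPM), heterozygous alpha cells (13.7 CPM), homozygous delta cells (12.5 CPM), homozygous stellate cells (10.5 CPM) and homozygous alpha cells (8.98 CPM). Tumors B, A and C came next at 6.33, 6.05 and 5.79 CPM, and then the homozygous Unknown2, PP and endothelial cells (3.66, 2.73 and 1.77 CPM) and heterozygous endothelial cells (1.17 CPM). Neighbours in this order had overlapping intervals except heterozygous delta against heterozygous beta cells, and homozygous alpha cells (7.78 to 10.3 CPM) against tumor B (5.33 to 7.46 CPM). In hormone-free CPM the order at the top changed: heterozygous beta cells (61.3) came before heterozygous delta cells (59.2) with overlapping intervals, followed by homozygous beta cells (53.4), and the alpha cells (26.4 heterozygous, 20.6 homozygous) remained above tumors B, A and C (10.8, 10.5 and 9.82). Both endothelial values rest on 1 UMI each (intervals 0.0447 to 9.84 CPM homozygous and 0.0296 to 6.52 CPM heterozygous). Rragd thus ran opposite to Rheb and Mtor between beta and endothelial cells: it was low in endothelial cells, where those 2 genes were higher than in beta cells, also in hormone-free CPM. In thinned cells, 3.21% to 6.95% of alpha-like cells had a Rragd UMI over the 5 libraries, against 1 of 17 homozygous and 1 of 67 heterozygous endothelial cells that reached 5000 UMIs. Without thinning, 10.6% to 15.1% of alpha-like cells had one, against 0.467% of homozygous and 0.513% of heterozygous endothelial cells, whose median depth was 2061 and 3587 UMIs, against 10002.5 to 26091.5 UMIs in alpha-like cells.

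Slc38a9, a lysosomal amino acid transporter that reports arginine to the Rags, and Depdc5, a subunit of the GATOR1 complex that shuts the Rags off, were both in the low tier, and Depdc5 was the lowest of the 10 in all 5 alpha-like libraries. Slc38a9 had 6.44, 3.72 and 4.32 CPM in tumors A, B and C, 3.47 CPM in homozygous and 6.22 CPM in heterozygous alpha cells. Depdc5 had 4.46, 3.05 and 2.66 CPM in tumors A, B and C, 2.53 CPM in homozygous and 3.73 CPM in heterozygous alpha cells. For both genes the heterozygous alpha cell interval overlapped those of all 3 tumors. Endothelial cells were higher for both, at 12.4 CPM (homozygous) and 16.4 CPM (heterozygous) for Slc38a9 and 10.6 CPM (homozygous) and 10.5 CPM (heterozygous) for Depdc5. In hormone-free CPM the endothelial intervals of both genes overlapped those of alpha and beta cells of both genotypes.

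Over the 14 profiles in CPM, Lamtor1, Rragc and Slc38a9 had the most similar patterns of the 10, with Pearson's r of 0.944 for Lamtor1 with Rragc and 0.942 for Lamtor1 with Slc38a9, while Rragd had r of -0.625 with Mtor. These values describe 14 profiles that share 5 libraries and differ in hormone content, and they carry no test. In hormone-free CPM the same r were 0.699, 0.777 and -0.440, and the order changed. Mlst8 with Depdc5 then had the highest r of the 10 genes (0.856), and both had 0 UMIs in homozygous stellate cells. Rraga with Rragc had the lowest (-0.857). In CPM, among 9704 genes, the patterns most like that of Mtor were those of Smurf2 (r = 0.973), Arhgap31 (r = 0.973) and Kctd10 (r = 0.969). Those most like Rragd were Tekt2 (r = 0.885), Ggact (r = 0.871) and Sept5 (r = 0.864). This search was not repeated in hormone-free CPM, so the part of hormone content in these r was not tested.

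Within the homozygous alpha cells, the authors' cluster 2.2 (563 cells) had less than cluster 2.1 (947 cells) of several members in CPM, and the differences changed in hormone-free CPM. Rraga had 88.1 CPM in cluster 2.2 and 110 CPM in cluster 2.1, and Rptor 7.80 CPM in cluster 2.2 and 12.7 CPM in cluster 2.1. Mlst8 had 2.68 CPM in cluster 2.2 and 5.42 CPM in cluster 2.1, with intervals that did not overlap for any of these 3 genes. Lamtor1 (46.4 CPM in cluster 2.2, 45.5 CPM in cluster 2.1) and Rheb (101 and 106 CPM, in the same order) lay within each other's intervals. Hormone transcripts made up 62.6% of UMIs in cluster 2.2 and 53.0% in cluster 2.1. In hormone-free CPM, Rraga was at 235 in both clusters, and the intervals overlapped for Rptor (20.8 in cluster 2.2, 27.1 in cluster 2.1) and Mlst8 (7.17 in cluster 2.2, 11.5 in cluster 2.1). Rheb (270 in cluster 2.2, 226 in cluster 2.1) and Lamtor1 (124 in cluster 2.2, 97.0 in cluster 2.1) then lay higher in cluster 2.2, with intervals that did not overlap. In tumor C, the authors' cluster 2 (697 cells) and cluster 4 (385 cells) had Rragc at 53.4 and 43.1 CPM and Rragd at 4.80 and 7.41 CPM, in that order. The Rragc intervals did not overlap (49.5 to 57.4 in cluster 2, 38.8 to 47.9 in cluster 4), and the Rragd intervals did (3.71 to 6.12 in cluster 2, 5.67 to 9.52 in cluster 4). Hormone transcripts made up 38.3% of UMIs in cluster 2 and 45.6% in cluster 4, and in hormone-free CPM the Rragc intervals overlapped (80.3 to 93.1 in cluster 2, 71.2 to 88.0 in cluster 4), and the Rragd intervals did not (6.01 to 9.93 in cluster 2, 10.4 to 17.5 in cluster 4). The clusters were made from all genes of these cells, so these are descriptions. Not every member is named for each pair of clusters. The share of all genes with intervals apart between these clusters was not counted, so the members cannot be set against other genes here.

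Between the islet genotypes, Rraga was the 1 gene of the 10 with a higher level in CPM in homozygous than in heterozygous alpha cells, and Rheb was higher too in hormone-free CPM. Rraga had 2264 UMIs in homozygous and 243 in heterozygous alpha cells, which is 102 against 75.6 CPM and a ratio of 1.35 (exact 95% binomial interval 1.18 to 1.55). Rheb was at 0.963 (0.861 to 1.08), and at 1.15 (1.03 to 1.29) in hormone-free CPM. The other 8 genes had ratios of 0.559 to 0.790. Rragc was at 0.655 (0.542 to 0.796), Rragd at 0.656 (0.471 to 0.932), Lamtor1 at 0.644 (0.557 to 0.746) and Slc38a9 at 0.559 (0.338 to 0.965), with intervals below 1. In hormone-free CPM the intervals of Rragc (0.646 to 0.949) and Lamtor1 (0.664 to 0.890) stayed below 1, while those of Rragd (0.562 to 1.11) and Slc38a9 (0.403 to 1.15) included it. With cluster 2.1 alone as the homozygous cells, those of Rragd (0.533 to 1.08) and Slc38a9 (0.353 to 1.06) included 1 as well. In CPM the intervals of Mtor (0.426 to 1.03), Rptor (0.573 to 1.11), Mlst8 (0.475 to 1.39) and Depdc5 (0.359 to 1.39) included 1. These intervals cover counting error within 1 library of each genotype, so there is no replicate check and no test.

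Most genes lay below 1 in this comparison, so the members are to be read against the rest. The median ratio was 0.761 over the 9937 genes with 5 CPM or more in either genotype and 0.857 over the 1952 genes with 50 CPM or more. Of the 9 members with 5 CPM (Depdc5 did not reach it), 5 had a ratio of 1/1.5 or less, beside 36.8% of all such genes. None reached 1.5 or more, beside 5.47% of all such genes. The members' median ratio was 0.656. Only the Rraga and Rheb intervals lay above the median ratio of 0.761, and only that of Lamtor1 lay below it. Rheb, Rraga and Lamtor1 had the most UMIs of the members and so the narrowest intervals. The low end for Rheb (0.861) was close to the median of 0.857 over genes with 50 CPM or more. The share of all genes with intervals off the median was not counted. Hormone-free totals multiply every ratio by 1.19, the median ratio included (0.907), so these positions against the median hold there too. With them Rraga stood at 1.61 (1.41 to 1.85), 1 member was at 1/1.5 or less and 1 at 1.5 or more. With cluster 2.1 alone as the homozygous cells, 2 members were at 1/1.5 or less. The shares of all genes given above belong to the CPM ratios and were not counted under these settings, so these member counts have no background beside them.

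**Figure D2:**
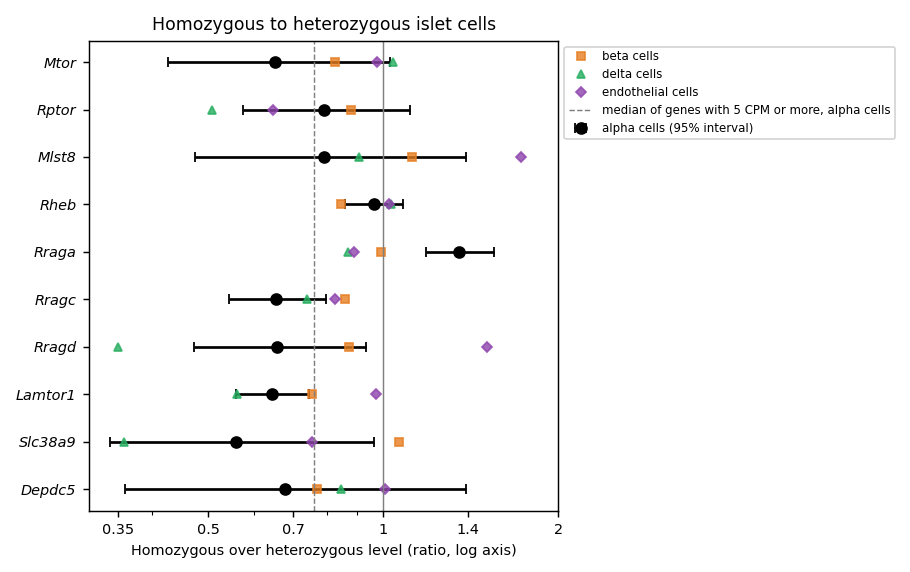
Ratio of the level in homozygous to that in heterozygous islet cells (log axis) for each gene. Black points and bars are alpha cells with the exact 95% binomial interval for counting error, coloured points are beta, delta and endothelial cells without intervals, and the dashed line is the median of genes with 5 CPM or more in alpha cells. Rraga in alpha cells lies above 1 at 1.35, and the endothelial point of Rragd rests on 1 UMI in each library.

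In the other islet cell types the homozygous to heterozygous ratio of Rraga was 0.990 in beta, 0.871 in delta and 0.889 in endothelial cells. In hormone-free CPM the delta cell ratio turned to 1.13 (251 homozygous, interval 227 to 277, and 222 heterozygous, interval 169 to 286), and the beta (0.989) and endothelial (0.880) ratios stayed below 1. Rragd, at 0.656 in alpha cells, was at 0.349 in delta cells (12.5 CPM homozygous, 35.7 CPM heterozygous) and at 0.873 in beta cells (0.782, 0.454 and 0.872 for alpha, delta and beta cells in hormone-free CPM). Lamtor1 was below 1 in alpha, beta (0.755) and delta cells (0.560) and near 1 in endothelial cells (0.971). The median ratio of all genes was computed for alpha cells only, so these beta, delta and endothelial ratios have no background beside them. The heterozygous delta cells numbered 62. The heterozygous alpha cells also held more beta cell markers, since the 8 markers summed to 11506 CPM in homozygous and 55582 CPM in heterozygous alpha cells, with Mafa at 0 in the heterozygous cells. The homozygous alpha cells held more Ppy, the PP cell marker (76625 CPM, against 16006 CPM in heterozygous alpha cells). Rragd was higher in beta than in alpha cells of both genotypes. It was lower in homozygous PP cells (2.73 CPM) than in homozygous alpha cells (8.98 CPM). The part of these transcripts in its ratio was not tested. Of the 88 other genes of the pathway, 78 reached 5 CPM, of which 4 had a ratio of 1.5 or more and 34 of 1/1.5 or less, with a median of 0.771.

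In tumor cells against islet alpha cells, none of the 9 tested members changed past the threshold. The 3 tumor libraries were set against the alpha cells of the homozygous and heterozygous islets with limma on log2(mean CPM over cells + 1), over 10233 genes with 5 CPM or more in at least 2 libraries. This called 213 genes higher and 14 lower at an adjusted p under 0.05, which is 2.22% of the genes tested. Of the members 9 were tested and 0 called, while 2 had an unadjusted p under 0.05, as did 21.4% of all genes. edgeR on the recovered UMIs also called 0 members, beside 0.176% of all genes, and DESeq2 called 1, beside 6.55% of all genes. The median of all genes was higher in tumors by 0.25 on the log2 scale, and changes below are given relative to it, while each p belongs to the unshifted change. In these library means fewer expressing cells and less RNA per cell cannot be told apart. The islet arm held 1 library of each genotype, so a gene that differs between the genotypes gets a wider SE and a larger p.

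Rragd had the largest difference of the members. Its mean level was 7.23, 6.47 and 5.89 CPM in tumors A, B and C, against 9.31 CPM in homozygous and 15.7 CPM in heterozygous alpha cells. All 3 tumors lay below both islet libraries. Relative to the median gene Rragd was at -1.05 on the log2 scale (SE 0.31, limma adjusted p = 0.193). DESeq2 called it lower (log2 -1.16, adjusted p = 0.00898); over all 17 fits the adjusted p ran from 0.00898 to 0.409 and the log2 value from -1.25 to -0.78. Rragd was the 1 of 9 members with all tumors below both islets, a pattern that 5.60% of all genes had. With hormone-free totals 17.5% of all genes had it, as did Rragd and Lamtor1. The 8 beta cell markers summed to 7.24, 138 and 3334 CPM in tumors A, B and C, against 11506 CPM in homozygous and 55582 CPM in heterozygous alpha cells. Rragd was higher in beta than in alpha cells. Ppy, the marker of PP cells, where Rragd was low, was also lower in tumors (2349, 275.5 and 540 CPM, against 76625 and 16006 CPM). The part of these transcripts in the difference was not tested.

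Rheb lay at 137, 167 and 220 CPM in tumors A, B and C, against 105 CPM in homozygous and 109 CPM in heterozygous alpha cells. The groups did not overlap, and tumor C was the highest. In hormone-free means over cells tumor A (237 CPM) and homozygous alpha cells (233 CPM) were close, and in hormone-free summed UMIs their order turned, at 226 CPM in tumor A and 240 CPM in homozygous alpha cells. The change was 0.43 relative to the median gene (SE 0.28, limma adjusted p = 0.209, 0.179 to 0.603 over the 18 fits). Mlst8 lay at 7.20, 7.23 and 6.99 CPM in tumors A, B and C, against 4.59 CPM in homozygous and 5.91 CPM in heterozygous alpha cells. Here too all tumors were above both islets, with a change of 0.14 (SE 0.31, limma adjusted p = 0.509). Having all tumors above both islets was common, at 33.7% of all genes, beside 2 of 9 members. With hormone-free totals 20.3% of all genes lay so, beside the same 2 members.

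The other members overlapped between the groups. Mtor had 7.03, 11.9 and 8.31 CPM in tumors A, B and C, against 5.19 CPM in homozygous and 10.9 CPM in heterozygous alpha cells. Its change was -0.04 relative to the median gene (SE 0.37, limma adjusted p = 0.791), and it turned positive in some alternatives. Rptor had 15.9, 15.2 and 13.2 CPM in tumors A, B and C, against 11.1 CPM in homozygous and 14.5 CPM in heterozygous alpha cells. The homozygous alpha cells were the lowest of the 5 libraries for 7 of the 9 tested members, beside 47.4% of all genes, and with hormone-free totals for 3 of 9, beside 21.9% of all genes. Rraga had 101, 106 and 126 CPM in tumors A, B and C, against 107 CPM in homozygous and 81.8 CPM in heterozygous alpha cells. Rragc had 38.6, 41.7 and 52.0 CPM in tumors A, B and C, against 29.1 CPM in homozygous and 43.6 CPM in heterozygous alpha cells. The changes of Rptor (-0.05), Rraga (-0.01) and Rragc (0.04) were all smaller than their SE (0.25, 0.25 and 0.27). Lamtor1 had 52.3, 61.5 and 54.4 CPM in tumors A, B and C, against 47.5 CPM in homozygous and 75.3 CPM in heterozygous alpha cells. Slc38a9 had 5.86, 4.21 and 4.73 CPM in tumors A, B and C, against 3.72 CPM in homozygous and 6.42 CPM in heterozygous alpha cells. In CPM, both had all 3 tumors between the 2 islet libraries, with changes of -0.34 (SE 0.27, limma adjusted p = 0.872) and -0.25 (SE 0.38, limma adjusted p = 0.994). Depdc5 had 4.22, 3.23 and 2.62 CPM in tumors A, B and C, against 2.60 CPM in homozygous and 3.70 CPM in heterozygous alpha cells, and was not tested because it did not reach 5 CPM. The median change of the 9 tested members was -0.04, beside 0 for all genes by construction.

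**Figure D3:**
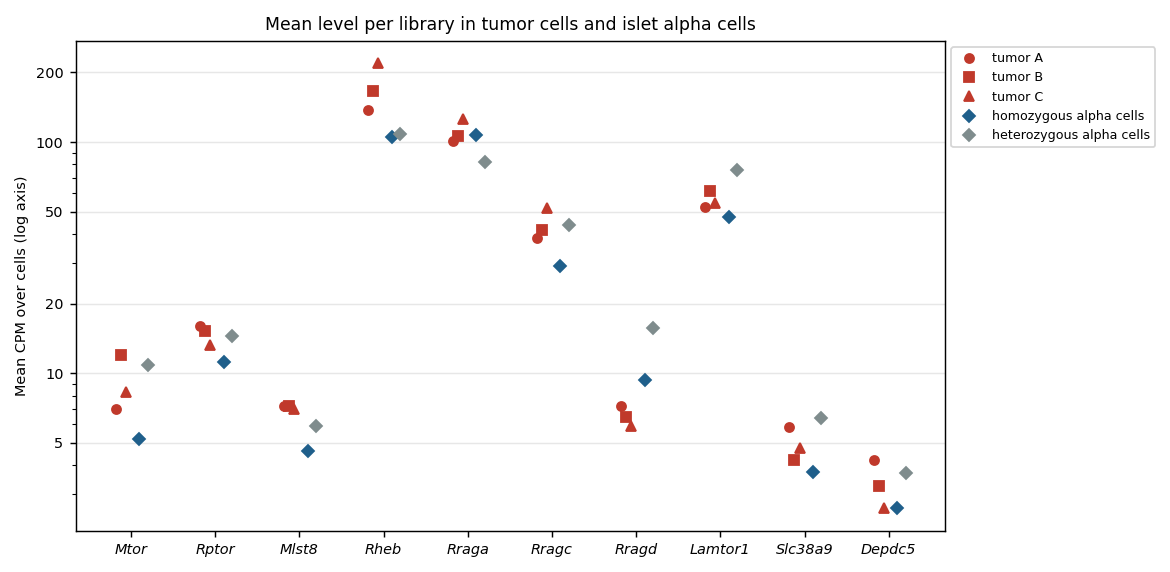
Mean CPM over cells (log axis) of each gene in the 3 tumor libraries (red, left) and in the alpha cells of the homozygous (blue) and heterozygous islets (grey, right). Each point is 1 library; Rragd lies lower in all tumors (5.89 to 7.23 CPM) than in both islets, and Rheb and Mlst8 lie higher.

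The wider pathway was covered by 12 lists with 88 further genes, of which 79 were tested. Only Prkab2 passed, and it was higher; it encodes a regulatory beta subunit of AMPK, the kinase that restrains mTORC1 when energy is low. Prkab2 had 61.0, 35.6 and 62.6 CPM in tumors A, B and C, against 5.84 CPM in homozygous and 10.6 CPM in heterozygous alpha cells. Every tumor was above both islets, and the change was 2.31 relative to the median gene (SE 0.35, limma adjusted p = 0.0225). It missed the threshold with edgeR (adjusted p = 0.0541), without tumor A (0.0635), with no filter on low levels (0.0623), without the heterozygous library (0.0818) and without the homozygous library (0.0792), and its adjusted p was 1.62e-07 with DESeq2. The other 6 AMPK list genes did not pass. Of the 79 tested, 14 had an unadjusted p under 0.05, as did 21.4% of all genes.

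In the other 11 lists 0 genes passed by limma, and their 2 most abundant members are given as levels. For partners and brakes of mTORC1 (0 of 4 tested), Akt1s1, which encodes the inhibitor PRAS40, averaged 57.3 ± 8.33 CPM in tumors (SD, n = 3), against 37.5 CPM in homozygous and 42.3 CPM in heterozygous alpha cells, and Deptor, another inhibitor, 43.4 ± 9.03 CPM in tumors, against 23.4 and 58.1 CPM in the same order of alpha cells. For the other Rag and Ragulator genes (0 of 6), Lamtor2 averaged 265 ± 69.6 CPM in tumors, against 217 CPM in homozygous and 134 CPM in heterozygous alpha cells, and Lamtor4 106 ± 30.1 CPM in tumors, against 96.3 and 125 CPM. Both encode Ragulator subunits. For GATOR1, GATOR2 and KICSTOR (0 of 10), Sec13 averaged 72.1 ± 4.79 CPM in tumors, against 71.4 CPM in homozygous and 67.2 CPM in heterozygous alpha cells, and Seh1l 34.2 ± 12.4 CPM in tumors, against 25.5 and 24.1 CPM. Both are GATOR2 subunits that also serve in the nuclear pore. Of the amino acid sensors (0 of 6), Castor2 (listed as Gatsl2), a relative of the arginine sensor CASTOR1, averaged 98.8 ± 36.3 CPM in tumors, against 125 CPM in homozygous and 159 CPM in heterozygous alpha cells, and Sar1b 118 ± 16.1 CPM in tumors, against 89.7 and 64.5 CPM. Of the folliculin complex (0 of 3), Fnip1 averaged 38.5 ± 5.40 CPM in tumors, against 22.6 CPM in homozygous and 37.1 CPM in heterozygous alpha cells, and Fnip2 15.7 ± 4.76 CPM in tumors, against 10.6 and 16.8 CPM. Of these 10 genes, Akt1s1, Lamtor2 and Sar1b had all 3 tumors above both islets, as did 33.7% of all genes, and the others overlapped. With hormone-free totals these 3 genes overlapped as well, and Sec13 and Gatsl2 had all 3 tumors below both islets, as did 17.5% of all genes.

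For the TSC complex (0 of 3), the brake on Rheb, Tsc1 averaged 26.2 ± 9.26 CPM in tumors (SD, n = 3), against 17.3 CPM in homozygous and 27.8 CPM in heterozygous alpha cells, and Tsc2 21.7 ± 3.25 CPM in tumors, against 13.7 and 19.2 CPM. For mTORC2 (0 of 2), the other complex built on Mtor, Rictor averaged 13.4 ± 3.57 CPM in tumors, against 10.9 CPM in homozygous and 16.9 CPM in heterozygous alpha cells, and Mapkap1 10.3 ± 0.850 CPM in tumors, against 6.96 and 10.0 CPM. For each of these 4 genes the homozygous alpha cells were lower than the heterozygous ones. Most genes lay so, with a median homozygous to heterozygous ratio of 0.761 over the 9937 genes with 5 CPM or more in either genotype. Among the outputs through S6K and 4E-BP (0 of 9), Pdcd4, an inhibitor of translation, averaged 195 ± 38.0 CPM in tumors, against 181 CPM in homozygous and 240 CPM in heterozygous alpha cells, and the ribosomal protein gene Rps6 104 ± 10.7 CPM in tumors, against 80.3 and 99.3 CPM. Among ULK1 and TFE factors (0 of 5), which act in autophagy and lysosome formation, Ulk1 averaged 28.9 ± 2.45 CPM in tumors, against 12.1 CPM in homozygous and 22.4 CPM in heterozygous alpha cells, and Atg13 25.5 ± 3.11 CPM in tumors, against 14.3 and 32.4 CPM. The v-ATPase, the lysosomal proton pump, had 0 of 15 past the threshold; Atp6v1f averaged 253 ± 21.3 CPM in tumors, against 327 CPM in homozygous and 312 CPM in heterozygous alpha cells, and Atp6v0b 257 ± 57.6 CPM in tumors, against 254 and 248 CPM. Of the amino acid carriers (0 of 9), Slc38a5 had 1098, 1813 and 1644 CPM in tumors A, B and C, against 741 CPM in homozygous and 84.0 CPM in heterozygous alpha cells, with a change of 2.32 relative to the median gene (limma adjusted p = 0.122). Slc3a2, the heavy chain of leucine carriers, averaged 98.6 ± 32.0 CPM in tumors, against 66.2 and 153 CPM.

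Rragb, which encodes RagB, the close relative of RagA, was singled out after its values were seen. It had 14.9, 24.5 and 21.9 CPM in tumors A, B and C, against 8.78 CPM in homozygous and 10.4 CPM in heterozygous alpha cells, with a change of 0.75 relative to the median gene (SE 0.28, limma adjusted p = 0.107). All tumors were above both islets, yet it did not pass. On summed UMIs Rragb had 1.60 CPM in homozygous and 0.984 CPM in heterozygous beta cells and 0 UMIs in endothelial cells of both genotypes, whereas Rraga was present in all of these. In tumor C it was at 12.7 CPM in cluster 2 and 35.6 CPM in cluster 4. Its RefSeq promoter held 3 copies of CACGTG, and that of Rraga none, while 7.15% of all such promoters held the motif. The share of promoters with 3 copies was not counted, and a link of these letters to the levels was not tested.

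**Figure D4:**
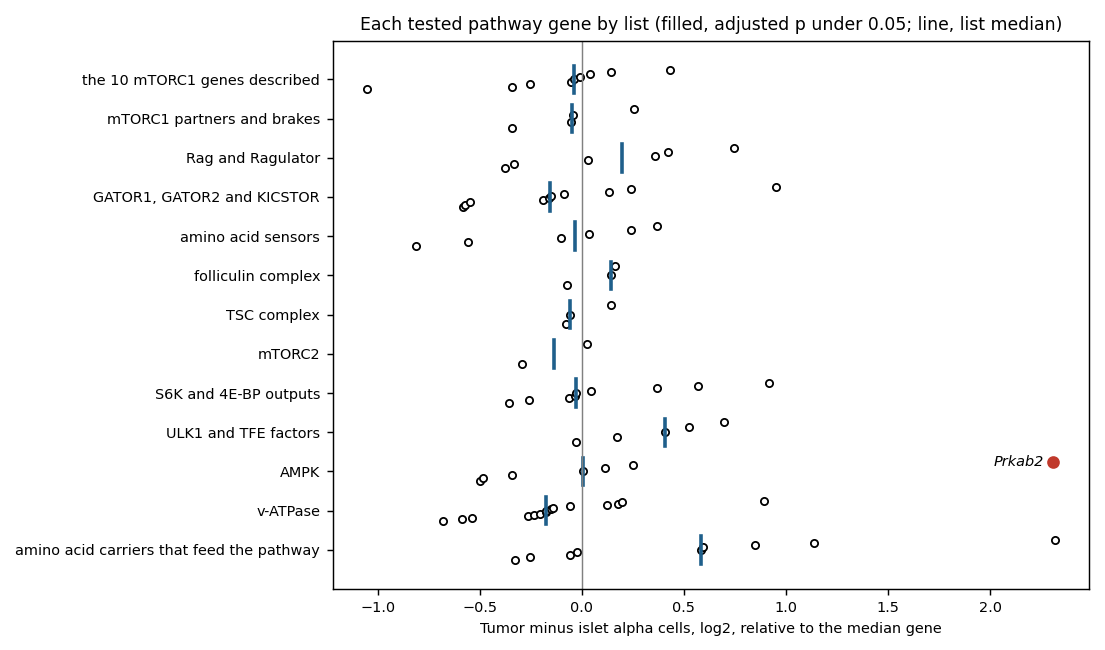
Change of each tested pathway gene in tumors relative to islet alpha cells (log2, relative to the median gene), by list. Each circle is a gene, filled where the limma adjusted p was under 0.05, and the vertical line is the list's median; Prkab2, at 2.31, is the 1 filled circle.

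Cells with and without a Slc38a5 UMI were compared within each library, since Slc38a5 marks the amino acid-responsive alpha cells, and none of the 9 tested members passed there either. After thinning to 5000 UMIs, Slc38a5-positive and negative cells numbered 424 and 55 in tumor A, 817 and 25 in tumor B, 1030 and 38 in tumor C, 995 and 432 in the homozygous and 69 and 190 in the heterozygous alpha cells. Without thinning, only 14, 2 and 6 cells of tumors A, B and C had no Slc38a5 UMI. Most negative tumor cells therefore held a Slc38a5 UMI that thinning removed, and they are not cells shown to lack Slc38a5. limma with library as a block called 5 of 11049 genes higher and 6 lower, which is 0.0996%. It called 0 of 9 tested members, 2 of which had an unadjusted p under 0.05, as did 11.4% of all genes. edgeR called 0 members and 0.987% of all genes. The median of all genes was 0.13 higher in positive cells on the log2 scale, and changes are relative to it. Of the 87 other pathway genes 80 were tested and 0 passed by limma, with 7 at an unadjusted p under 0.05. Positive cells were deeper in every library, with medians of 11880 to 26299 UMIs, against 10602.5 to 22586 UMIs in negative cells. Slc38a5 also had 28.3, 44.2 and 46.1 CPM in homozygous endothelial, beta and delta cells, and 1.17, 2.26 and 26.8 CPM in the heterozygous ones. The part of depth, and of Slc38a5 UMIs from other cells, in these values was not tested.

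Rraga had the smallest p of the members. It was at 106, 106, 125, 111 and 96.4 CPM in positive cells of tumors A, B and C and of homozygous and heterozygous islets, against 59.7, 92.0, 101, 92.4 and 71.0 CPM in negative cells of the same libraries. Positive cells were higher in 5 of 5 libraries, which 9.51% of all genes also showed. The change was 0.28 relative to the median gene (SE 0.11, limma adjusted p = 0.215, 0.139 to 1.00 over the 14 fits). Rragd was at 5.66, 6.49, 5.75, 9.81 and 8.11 CPM in positive cells, against 21.4, 6.87, 12.2, 8.01 and 15.1 CPM in negative cells in the same order of libraries. It was lower in positive cells in all libraries but the homozygous islets, and tumor A differed the most. Its change was -0.80 (SE 0.29, limma adjusted p = 0.412); without tumor A it was -0.50.

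Mtor was higher in positive cells in 4 of 5 libraries, with a change of 0.24 (SE 0.27, limma adjusted p = 0.604). In homozygous alpha cells it had 6.75 CPM in positive and 2.78 CPM in negative cells, and in tumor B the order turned, with 11.9 CPM in positive and 16.9 CPM in negative cells. Mlst8 had 7.49 CPM in positive and 0 CPM in the 25 negative cells of tumor B, and 4.30 CPM in positive and 7.95 CPM in negative cells of the heterozygous islets. It was higher in positive cells in 3 of 5 libraries (change 0.62, SE 0.44, limma adjusted p = 0.528). Rheb (-0.19, SE 0.11), Rptor (-0.13, SE 0.22), Rragc (-0.11, SE 0.17), Lamtor1 (-0.07, SE 0.12) and Slc38a9 (0.19, SE 0.31) had adjusted p-values by limma of 0.710 to 0.998. Positive minus negative cells had one sign in all 3 tumors and the other in both islets for Lamtor1 and Slc38a9, 2 of the 9 tested members, and for 5.45% of all genes. Depdc5, which was not tested, had 1.95 to 4.60 CPM in positive and 0 to 5.24 CPM in negative cells.

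**Figure D5:**
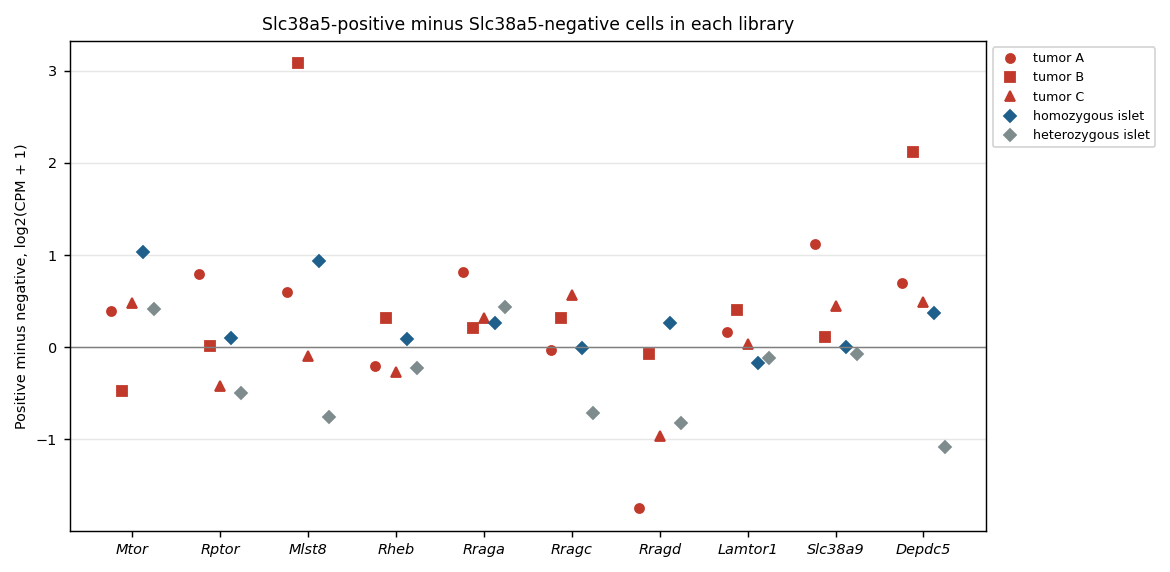
Slc38a5-positive minus Slc38a5-negative cells (classes by UMI after thinning) on the log2(CPM + 1) scale for each gene, 1 point per library. Points above 0 are higher in positive cells; all 5 points of Rraga lie above 0 and 4 of the 5 of Rragd lie below it.

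In the most abundant genes of the other lists the same comparison gave small values relative to the median gene. Changes were -0.01 for Akt1s1, -0.02 for Deptor, 0.12 for Lamtor2, 0.07 for Lamtor4, 0.04 for Sec13, 0.03 for Seh1l, -0.07 for Gatsl2 and 0.09 for Sar1b. They were -0.02 for Fnip1, 0.15 for Fnip2, -0.14 for Tsc1, 0.01 for Tsc2, 0.01 for Rictor, -0.29 for Mapkap1, -0.06 for Pdcd4 and -0.25 for Rps6. They were 0.20 for Ulk1, 0.04 for Atg13, -0.24 for Stk11, which encodes the kinase LKB1 upstream of AMPK, -0.08 for Prkab2, 0.12 for Atp6v0b, -0.12 for Atp6v1f, -0.12 for Slc3a2 and 0.15 for Slc7a8. Across these 24 genes the limma adjusted p was 0.322 or more.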

How the data were processed

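The deposited values are normalized UMIs, a signal scaled by the authors. They were read here as a cell's UMIs over its total times a constant. The constant was estimated from the values themselves, at 9936 for the islets and 12219 for the tumors. For the tumors the total was that of exonic UMIs. The cell totals in the deposited tables are counts. Per the submitters' processing notes, CASAVA 1.8, bcl2fastq 2.17 and GSNAP were used with GRCm38. Multiplying back gave whole UMIs for 100.0% of values within 0.01; the count test on them (edgeR 4.0.16, quasi-likelihood) called 18 genes between tumor and islet alpha cells (17 of them higher in tumors) and 109 between Slc38a5-positive and negative cells (51 of them higher in positive cells). Scrublet called 18, 9, 15, 1 and 8 doublets in tumors A, B and C, homozygous and heterozygous islets, and these were removed; every cell had 1000 UMIs and 500 genes. Cell names shared between libraries numbered 0, but the tables hold no barcodes, so shared barcodes could not be counted.

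Levels are summed UMIs per 1000000 UMIs with exact 95% Poisson intervals, and ratios have exact 95% binomial intervals; both cover counting error only. Tests used limma 3.58.1 in R 4.3.3 (trended prior variance, two-sided, Benjamini-Hochberg at 0.05) on log2(mean CPM over cells + 1), with 1 value per library and 5 CPM needed in 2 libraries. Fold changes on this scale understate those of low genes. Slc38a5 itself was left out of the positive against negative fit, which had library as a block because both classes come from the same library. DESeq2 1.42.0, TMM scaling, other filters and pseudocounts, hormone-free totals, other choices of cells and each library left out were alternatives. The fits were tested on simulated data. Named were all 10 genes and, per list of other pathway genes, up to 4 past the threshold or else the 2 most abundant. The members and lists were chosen with earlier results of these data known. Some older symbols stand for current ones in the tables (Gatsl2 for Castor2). Promoters are from RefSeq (GRCm38.p6), and all 10 genes matched. Columns of other samples numbered 0.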

Additional observations from a re-analysis of the deposited data

Results flagged for a closer look

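Between Slc38a5-positive and negative cells, 2 of the 9 tested members had one sign in all 3 tumor libraries and the other sign in both islet libraries. So did 5 of the 80 other tested pathway genes (6.25%), which is close to the 5.45% of all genes tested. Whether the tumors and islets differ was not tested. All values are positive minus negative on the log2(CPM + 1) scale, in the order tumors A, B and C, homozygous islets, heterozygous islets. Lamtor1 had 0.17, 0.40, 0.036, -0.17 and -0.11. Slc38a9 had 1.12, 0.11, 0.44, -0.0018 and -0.077, so that its homozygous value is close to 0. Mios, a GATOR2 subunit, had 0.82, 0.32, 0.45, -0.086 and -1.63. Lars, a leucyl-tRNA synthetase, had 0.020, 0.44, 0.18, -0.30 and -0.19. Pdcd4, an inhibitor of translation, had 0.067, 0.35, 0.25, -0.080 and -0.23. Rb1cc1, which acts with ULK1 in autophagy, had 0.16, 0.21, 0.0093, -0.070 and -0.65. Slc36a1, a lysosomal amino acid carrier, had 0.30, 0.24, 0.11, -0.44 and -0.034. None of the 7 genes passed the limma test over the 5 libraries. Most of the negative tumor cells held a Slc38a5 UMI before thinning.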

How the results depend on the processing

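The tumor libraries carry numbers that the islet libraries do not share. No paired analysis was possible because of this for tumors against islets; in the Slc38a5 comparison, the fit with no replicate block called 0 genes higher and 0 lower.

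Genes higher and lower in tumors numbered 213 and 14 in the fit reported. They were 400 and 270 with DESeq2 (1 member past the threshold), 35 and 9 with TMM, 17 and 1 with edgeR, 19 and 1 without a filter, 49 and 9 with hormone-free totals, and 64 and 23 with tumor clusters 1 and 3 only, which leaves tumor C out; a pseudocount of 5 CPM gave 24 lower. Without each library in turn they ran from 13 to 143 higher and from 0 to 23 lower. Between positive and negative cells, the 5 higher and 6 lower were 12 and 19 with TMM, 20 higher without thinning (2 libraries only), 51 and 58 with edgeR, 13 higher at a 20 CPM filter, 0 and 0 without a filter, 2 and 1 with a pseudocount of 0.5 CPM, and 15 higher with 5 CPM. Without each library in turn they ran from 0 to 37 higher and from 0 to 12 lower. The cause of these shifts was not tested.

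Members whose tumor change turned sign had main values within 0.06 of 0. Mtor was at 0.14 with DESeq2, 0.13 with edgeR, 0.10 without a filter, 0.068 with summed UMIs and 0.022 in clusters 1 and 3, and from -0.36 to 0.26 without each library. Rptor was at 0.090 without a filter and 0.041 in clusters 1 and 3 (-0.12 to 0.041 without each library). Rraga was at 0.13 without a filter, 0.028 with 5 CPM, 0.030 with summed UMIs and 0.020 without cycling cells (-0.38 to 0.33 without each library). Rragc was at -0.0051 with a 20 CPM filter and -0.062 in clusters 1 and 3 (-0.093 to 0.15 without each library). Rheb and Mlst8 stayed positive, and Rragd, Lamtor1 and Slc38a9 negative, in every fit. In positive cells, classes without thinning put Mlst8 at -0.099, Rragd at 0.020 and Prkab2 at 0.024, and edgeR put Slc38a9 at -0.047; without each library Rragc ran from -0.26 to 0.032 and Prkab2 from -0.19 to 0.040.

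In homozygous against heterozygous alpha cells, members at 1/1.5 or less numbered 1 with hormone-free totals and 2 with cluster 2.1 only, against 5, and members at 1.5 or more 1 with hormone-free totals, against 0. The shares of all genes were not counted under these alternatives. Without thinning, 48 of 50 shares of cells with a UMI left their interval, all upward. Depdc5 had the fewest UMIs of the members in each alpha-like library, 45, 69 and 58 in tumors A, B and C, 56 in homozygous and 12 in heterozygous alpha cells. Hormone-free totals for cell populations, clusters, ratios in other cell types and non-overlap of tumors and islets were chosen after seeing the data.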
